A study of Homo sapiens with 8 samples.

Results

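The TGF-beta pathway was followed through 10 genes: the ligands TGFB1 and TGFB2, the receptors TGFBR1, TGFBR2 and TGFBR3, the signal transducer SMAD3, the inhibitors SMAD7, SKIL and PMEPA1, and the secreted target TGFBI. They were picked by symbol through their Ensembl gene IDs, and all 10 were found among the 63241 gene IDs of the deposited expression files. The study sequenced mRNA from HepG2 and Huh7, established human liver tumour cell lines labelled as hepatocellular carcinoma cells, to compare sorafenib-resistant with parental cells. Sorafenib is an oral inhibitor of RAF, VEGF receptor and PDGF receptor kinases. Each of the 4 groups holds 2 libraries. HepG2 WT and Huh7 WT are the parental sensitive cells, with genotype WT and treatment control in the labels, and HepG2 SR and Huh7 SR are their resistant counterparts, with genotype SR and treatment sorafenib. The SR lines were derived by stepwise exposure to rising drug concentrations, and all cells were kept in DMEM with fetal bovine serum. Selection history and drug treatment cannot be told apart in this design, because every SR library carries both labels, and whether the drug was present at harvest is not given in the sources used here. All 8 libraries carry the same batch label. Nothing says that replicates came from separate cultures, so the p-values below measure only the spread between these libraries, which may be technical.

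TGF-beta is secreted in a latent complex and, once released, binds the type II receptor TGFBR2, which phosphorylates the type I receptor TGFBR1 (ALK5). TGFBR1 then phosphorylates SMAD2 and SMAD3, which enter the nucleus with SMAD4 and switch on target genes, among them genes for the pathway's own inhibitors. Betaglycan, encoded by TGFBR3, is a co-receptor without kinase activity that presents ligand, TGF-beta 2 above all, to the signalling receptors, and its shed ectodomain can trap ligand. In the liver the pathway restrains hepatocyte proliferation and drives fibrosis, and in liver cancer it is known both as a growth inhibitor and as a promoter of invasion.

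Levels are given as FPKM, fragments scaled to transcript length and to the mapped total of the library, so they can be set side by side between genes. The number of fragments is not printed in the files. From the steps between the lowest values of genes with 1 annotated transcript, 1 fragment on a transcript of 1 kilobase weighed 0.0372 FPKM in the deepest library, Huh7 WT 1, and 0.0741 in the shallowest, HepG2 WT 2. Each library had between 12829 and 13386 genes at 1 FPKM or more.

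The libraries did not group by their labels. Over the 15173 genes with at least 1 FPKM in at least 2 libraries, 5 libraries (HepG2 WT 1, HepG2 WT 2 and HepG2 SR 1 with Huh7 WT 2 and Huh7 SR 2) correlated with each other at Pearson r from 0.914 to 0.977 on the log2(FPKM + 1) scale, across genes. Huh7 WT 1 and Huh7 SR 1 correlated with each other at r = 0.965 but with those 5 only at 0.731 to 0.783. HepG2 SR 2 stood apart from both, at 0.775 to 0.819 with the 5 and 0.815 to 0.846 with that pair. KRT19, a bile duct keratin, read 760, 279, 255, 155 and 178 FPKM in the 5 libraries in the order named, 1.78 and 2.37 in Huh7 WT 1 and Huh7 SR 1, and 0.179 in HepG2 SR 2. MAGEA4, a cancer-testis antigen, read 237 and 346 FPKM in Huh7 WT 1 and Huh7 SR 1 and was listed at 0 in every other library. The labels were kept as given. The study states that its lines were authenticated by short tandem repeats, without naming the sequenced samples. Whether libraries were exchanged or cultures mixed was not tested, and this bears on every comparison within or between the labelled lines: Huh7 WT 2 correlated at 0.914 to 0.918 with the 3 HepG2 libraries of the 5 and at 0.754 with Huh7 WT 1. Results for SR against WT are therefore given over all 8 libraries. For the tested members and the pathway lists they are given again over the 5 libraries of like profile. These hold 3 WT and 2 SR libraries. Unlike the fit to all 8, the fit to these 5 compared WT with SR without a term for the cell line, and the lines are unevenly spread over WT and SR there. The share of all genes whose SR and WT libraries do not overlap was computed over all 8 libraries only, not within a line or in these 5.

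Hepatocyte transcripts were present throughout. At least 9 of 10 hepatocyte markers reached 1 FPKM in every library, and the summed level ran from 737 FPKM in Huh7 WT 1 to 10636 in Huh7 SR 2, with ALB the highest on average. Of these 10, only TF was called for all SR against all WT (1.37 on the log2 scale, SE 0.50). TF and HNF4A were called in Huh7 (2.13 and 0.96). All were higher in SR by limma at an unadjusted p below 0.05. Of all genes, 3.93% were called for all SR against all WT and 1.87% in Huh7. Fewer cells of a type and less RNA per cell cannot be told apart in these bulk libraries. Of 8 fibroblast and stellate cell markers at most 2 reached 1 FPKM in any library, led by ACTA2 in the 5 libraries, COL3A1 in Huh7 WT 1 and Huh7 SR 1, and PDGFRA in HepG2 SR 2, at 21.7 FPKM. Of 6 leukocyte markers, 1 to 3 reached 1 FPKM in each library, with CD68 highest (up to 29.1 FPKM), CD14 up to 6.27 and LAPTM5 up to 1.36, while PTPRC stayed at or below 0.0258. Of 5 endothelial markers at most 1 did, PECAM1 (up to 4.28 FPKM).

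**Figure D1:**
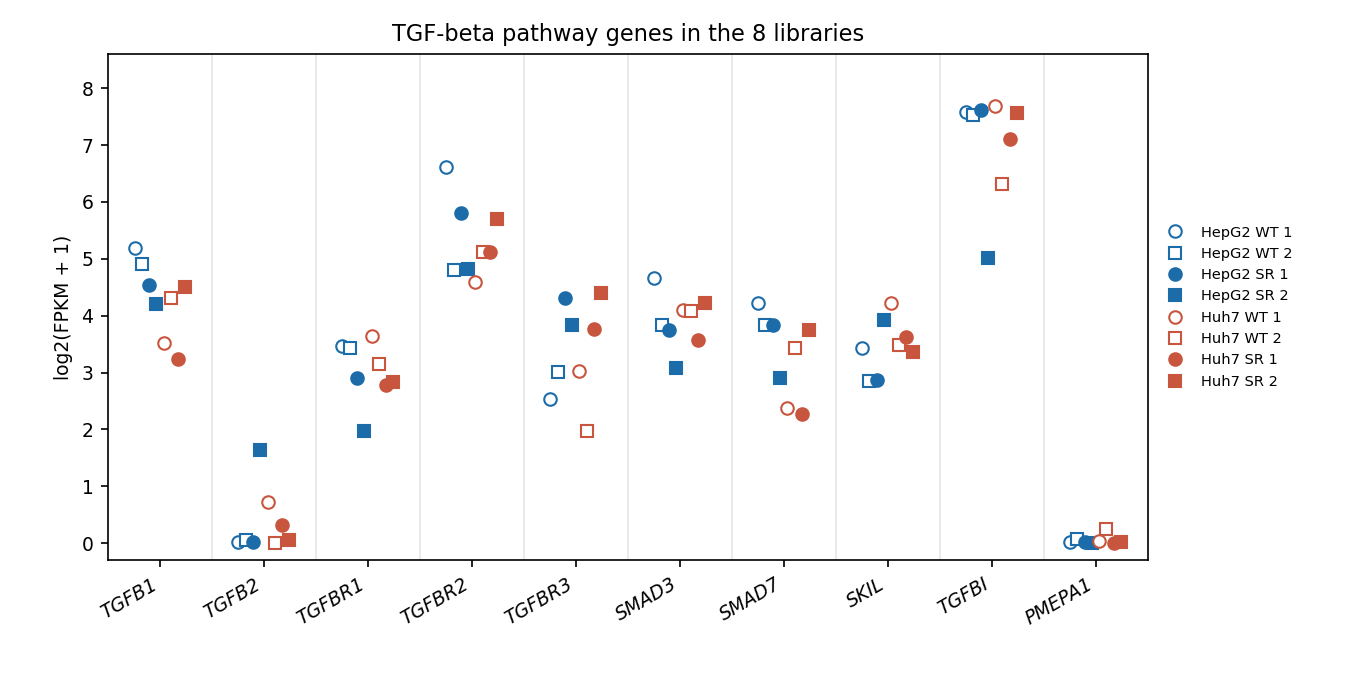
Level of each of the 10 genes in the 8 libraries, as log2(FPKM + 1). Blue marks HepG2 and red Huh7, open symbols WT and filled symbols SR, circles replicate 1 and squares replicate 2. The filled symbols of TGFBR3 all lie above the open ones, those of TGFBR1 all lie below, and TGFB2 and PMEPA1 lie near 0 in most libraries.

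Among the ligands, TGFB1, the main isoform made by liver and immune cells, was expressed in every library. It read 35.5 and 29.1 FPKM in HepG2 WT and 22.4 and 17.4 in HepG2 SR, and 10.5 and 18.9 in Huh7 WT against 8.42 and 21.6 in Huh7 SR. Both HepG2 SR libraries read below both HepG2 WT libraries, while the Huh7 groups overlapped. The share of all genes separated this way within a line was not computed. The HepG2 difference was −0.68 on the log2(FPKM + 1) scale with a standard error (SE) of 0.51 and did not pass the test. In Huh7 the difference was −0.049, with an SE of 0.51. It changed sign without Huh7 WT 2 (0.35) and without Huh7 SR 1 (0.58). For all SR against all WT it was −0.36 (SE 0.36), and −0.28 (SE 0.33) over the 5 libraries of like profile.

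TGFB2 was close to absent outside a pair of libraries. HepG2 SR 2 read 2.10 FPKM and Huh7 WT 1 read 0.652, followed by Huh7 SR 1 at 0.254, and the remaining 5 read between 0 and 0.0390. The 3 highest values were those of the 3 libraries that stood apart in overall profile. TGFB2 reached 1 FPKM in 1 library only and was not tested.

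Among the tested members, only a pair of receptors separated all SR from all WT libraries. TGFBR3 read 4.78 and 7.10 FPKM in HepG2 WT and 18.8 and 13.4 in HepG2 SR, and 7.17 and 2.94 in Huh7 WT against 12.6 and 20.1 in Huh7 SR. All 4 SR libraries were above all 4 WT libraries, and the same held within each line. TGFBR1 went the other way. It read 10.1 and 9.83 FPKM in HepG2 WT and 6.50 and 2.90 in HepG2 SR, and 11.5 and 7.92 in Huh7 WT against 5.87 and 6.15 in Huh7 SR, so that all 4 SR libraries were below all 4 WT libraries. The ratio of TGFBR3 to TGFBR1 FPKM lay between 0.372 and 0.722 in the WT libraries and between 2.16 and 4.60 in the SR libraries: TGFBR1 was the more abundant transcript in every WT library and TGFBR3 in every SR library. The members had been chosen with earlier results of these data known, so this separation is a description.

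**Figure D2:**
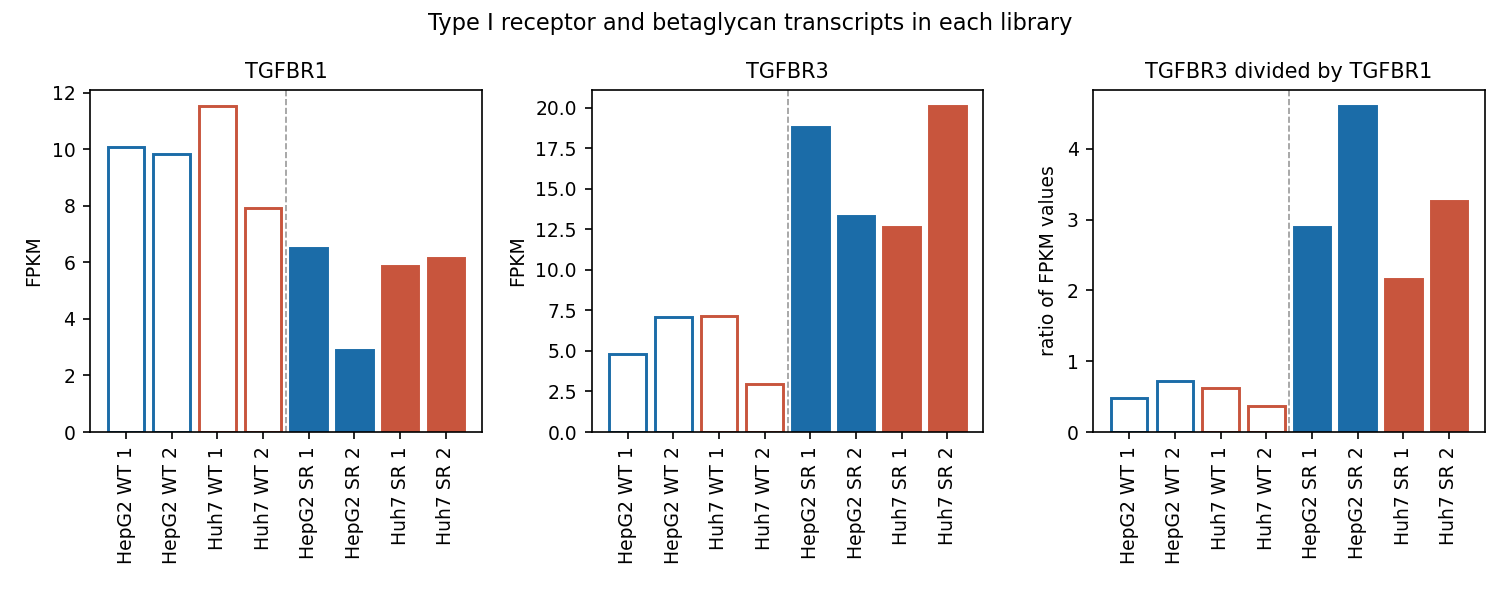
FPKM of TGFBR1 (left) and TGFBR3 (middle) and their ratio (right) in each library, WT as open bars and SR as filled bars, HepG2 in blue and Huh7 in red. TGFBR1 spans 7.92 to 11.5 FPKM in WT and 2.90 to 6.50 in SR, TGFBR3 spans 2.94 to 7.17 in WT and 12.6 to 20.1 in SR, and the ratio spans 0.372 to 0.722 in WT and 2.16 to 4.60 in SR.

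Of the 8 members that passed the filter on low values, 1 (TGFBR3) had all SR libraries above all WT libraries, as did 1.52% of the 15173 genes tested, and 1 (TGFBR1) had all SR libraries below, as did 2.17%. A gene was called in the limma fit at an unadjusted p below 0.05 with a log2 change of at least 0.5 or below −0.5, the thresholds the study used. For all SR against all WT, the mean of both within-line differences, 2 of the 8 members were called against 3.93% of all genes. TGFBR3 rose by 1.44 on the log2(FPKM + 1) scale (SE 0.34, 95% interval 0.63 to 2.25, unadjusted p = 0.00418), which ranked it 29th of 15173 genes by p. TGFBR1 fell by 0.81 (SE 0.30, 95% interval −1.51 to −0.10, unadjusted p = 0.0312). Neither passed adjustment: the limma p with Benjamini-Hochberg adjustment over all genes was 0.998 for both, with TGFBR3 higher in 4 of 4 SR libraries and TGFBR1 lower in 4 of 4. In limma, 0 of 15173 genes reached an adjusted p below 0.05 in this comparison, 597 had an unadjusted p below 0.05 and the smallest adjusted p was 0.998.

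Within HepG2, TGFBR3 rose by 1.30 (SE 0.48, unadjusted p = 0.0317) and TGFBR1 fell by 1.02 (SE 0.42, unadjusted p = 0.0472), making 2 of 8 members called against 2.14% of all genes. Within Huh7, TGFBR3 rose by 1.58 (SE 0.48, unadjusted p = 0.0142) and was the 1 member called of 8, against 1.87% of all genes, while TGFBR1 differed by −0.59 (SE 0.42, unadjusted p = 0.203). The difference between the lines was below its SE for both genes, at 0.28 (SE 0.68) for TGFBR3 and 0.43 (SE 0.60) for TGFBR1. The 95% intervals, −1.35 to 1.90 and −0.99 to 1.84, also hold large differences. No member passed limma's test of that difference at an unadjusted p below 0.05, which 0.606% of all genes did. In limma the numbers of genes at an adjusted p below 0.05 were 0 in HepG2 and 0 in Huh7, where 325 and 283 had an unadjusted p below 0.05.

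TGFBR3 was the steadier of the pair. It stayed called for all SR against all WT when any 1 of the 8 libraries was left out, with log2 differences from 1.18 to 1.70. In the 5 libraries of like profile it read 2.94 to 7.10 FPKM in WT and 18.8 to 20.1 in SR, a difference of 1.84 on the log2 scale (SE 0.35, unadjusted p = 0.00071), the 11th of 13693 genes by p. The limma p with Benjamini-Hochberg adjustment was then 0.676, with both SR libraries above all 3 WT libraries. TGFBR3 was the 1 member called of 8 there, against 5.85% of all genes. Within the lines its call was less firm: in HepG2 it was lost without HepG2 WT 1, HepG2 WT 2 or HepG2 SR 1 (1.06 to 1.54 over all 8 omissions), and in Huh7 without Huh7 WT 2 or Huh7 SR 2 (1.05 to 2.11).

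TGFBR1 kept its direction and lost its call. Leaving out 1 library gave log2 differences from −1.04 to −0.57 for all SR against all WT, and the gene stayed called in 2 of 8 omissions, those of HepG2 SR 1 and Huh7 WT 2. The unadjusted p rose to at most 0.0885, without Huh7 WT 1. In the 5 libraries it read 7.92 to 10.1 FPKM in WT and 6.15 to 6.50 in SR, and the difference of −0.48 (SE 0.27, limma unadjusted p = 0.109) was not called. In HepG2 alone the call held in 1 of 8 omissions, and the difference was −0.55 without HepG2 SR 2, the library with the lowest TGFBR1.

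**Figure D3:**
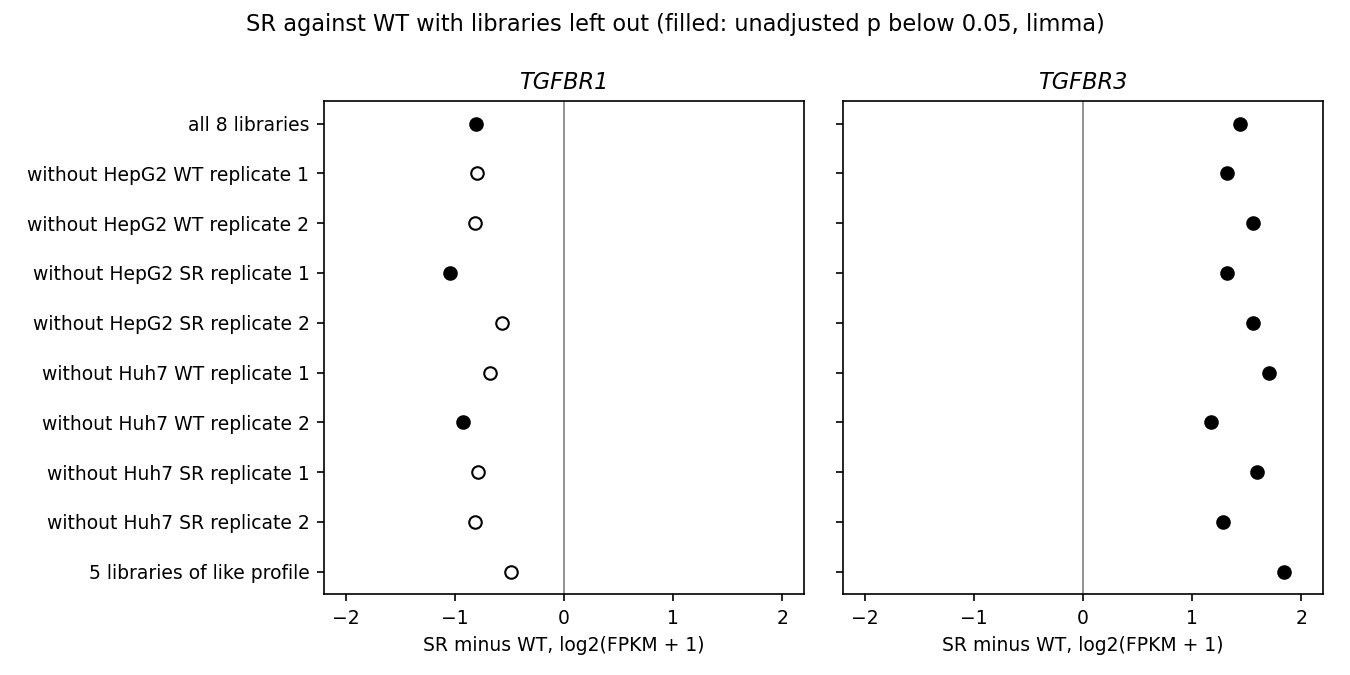
Difference between SR and WT on the log2(FPKM + 1) scale for TGFBR1 (left) and TGFBR3 (right), over all 8 libraries, with each library left out in turn, and over the 5 libraries of like profile. The fit to the 5 libraries compared WT with SR without a term for the cell line. Filled points have an unadjusted limma p below 0.05. TGFBR3 lies between 1.18 and 1.84 with every point filled, and TGFBR1 between −1.04 and −0.48 with 3 filled points.

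TGFBR2, the kinase that binds ligand first, was the most abundant of the 3 receptors in every library. It read 97.3 and 27.0 FPKM in HepG2 WT, 55.1 and 27.4 in HepG2 SR, 23.2 and 33.7 in Huh7 WT, with 33.6 and 51.2 in its SR libraries. The groups overlapped, and the replicates of HepG2 WT lay further apart than any difference between SR and WT. The difference over all libraries was 0.077 on the log2 scale (SE 0.47), and 0.24 (SE 0.51) over the 5 libraries of like profile. TGFBR2 exceeded TGFBR1 by 2.02 times in Huh7 WT 1 up to 9.64 times in HepG2 WT 1.

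The promoters of TGFBR3 and TGFBR1 are shown because these were the tested members whose SR and WT libraries did not overlap. RefSeq gives 27 start windows of 300 bases (250 before to 50 after a start, GRCh38.p14) for the 10 genes, 1 for TGFBR3 and 8 for TGFBR1. They were searched on both strands for the SMAD palindrome GTCTAGAC, the SMAD box CAGACA and the AP-1 motif TGANTCA. The palindrome was in 0 of the 27 windows and in 0.202% of the 35116 windows of all genes. The SMAD box was in 5 windows of 4 members (PMEPA1, SMAD3, TGFB2 and TGFBR1) and in 16.9% of all windows, and the AP-1 motif in 2 windows (SMAD3 and TGFBR2) and in 7.71% of all. These letters are short, and a match is a description of the sequence only. The 250 bases before the TGFBR3 start lie at chr1:91886152-91886401 on the minus strand, and the 300-base window held none of the 3 motifs and was 71.7% G and C. The TGFBR1 sequence is the 250 bases before the start whose match lies nearest to it, chr9:99103802-99104051 on the plus strand. The capitals mark the SMAD box, found on the opposite strand with its first base 17 bases before the start, and this window was 41.7% G and C. The 8 TGFBR1 windows ran from 41.7% to 80.7% G and C and held 2 matches in all, so most held none. The window shown was chosen for its match and does not stand for the others.
TGFBR3: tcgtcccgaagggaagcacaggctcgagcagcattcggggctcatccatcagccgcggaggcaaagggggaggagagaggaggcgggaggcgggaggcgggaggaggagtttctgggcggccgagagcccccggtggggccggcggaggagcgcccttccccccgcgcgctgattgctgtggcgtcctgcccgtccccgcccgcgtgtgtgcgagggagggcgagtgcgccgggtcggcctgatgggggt
TGFBR1: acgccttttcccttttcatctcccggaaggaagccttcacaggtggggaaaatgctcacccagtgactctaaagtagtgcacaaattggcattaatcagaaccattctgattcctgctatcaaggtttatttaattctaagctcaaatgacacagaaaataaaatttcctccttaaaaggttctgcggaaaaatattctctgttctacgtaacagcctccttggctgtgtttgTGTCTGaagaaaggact

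Downstream of the receptors, SMAD3, which carries the signal to the nucleus, read 24.4 and 13.2 FPKM in HepG2 WT, 12.4 and 7.44 in HepG2 SR, 16.2 and 15.9 in Huh7 WT, with 10.9 and 17.7 in its SR libraries. In HepG2 the higher SR value (12.4) lay close under the lower WT value (13.2). In Huh7 the SR libraries lay on either side of WT. The HepG2 difference of −0.84 on the log2 scale (SE 0.45, unadjusted p = 0.105) was not called, and that in Huh7 was −0.19 (SE 0.45). An antisense transcript, AC087482.1, overlaps SMAD3 exons and reached 7.47 FPKM. Whether the authors' counting used strand is not given in the sources used here, so fragments of the overlap cannot be told apart. The same holds for TGFB1, whose exons overlap HNRNPUL1 on the opposite strand (up to 91.1 FPKM).

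The feedback inhibitors followed no common course. SMAD7, which blocks TGFBR1 and recruits ubiquitin ligases to it, read 17.7 and 13.3 FPKM in HepG2 WT, 13.2 and 6.45 in HepG2 SR, 4.21 and 9.74 in Huh7 WT, with 3.81 and 12.4 in its SR libraries. Its 2 lowest values were those of Huh7 WT 1 and Huh7 SR 1, the libraries with MAGEA4. The difference between SR and WT was −0.28 on the log2 scale over all libraries (SE 0.45) and −0.045 over the 5 libraries of like profile (SE 0.31).

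SKIL, the nuclear repressor SnoN that is degraded on TGF-beta signalling and then induced again, read 9.81 and 6.23 FPKM in HepG2 WT, 6.32 and 14.2 in HepG2 SR, 17.6 and 10.1 in Huh7 WT, with 11.3 and 9.27 in its SR libraries. Its 3 highest values came from the 3 libraries that stood apart, Huh7 WT 1, HepG2 SR 2 and Huh7 SR 1. The difference of −0.049 on the log2 scale over all libraries (SE 0.35) changed sign with several omissions. Over the 5 libraries of like profile it was −0.14 (SE 0.32). PMEPA1, a membrane protein that sequesters SMAD2 and SMAD3 and is a strong target in many cells, was not detectable at a usable level. It was listed at 0 in HepG2 SR 2 and Huh7 SR 1, at 0.189 FPKM in Huh7 WT 2 and at 0.0527 or less elsewhere. Its 4 SR values lay below its 4 WT values, but so near 0 that it was not tested and no fold change is given.

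TGFBI, a secreted matrix protein named for its induction by TGF-beta, was the most abundant of the 10 genes in all 8 libraries. It read 191 and 183 FPKM in HepG2 WT, 194 and 31.3 in HepG2 SR, 205 and 79.0 in Huh7 WT, with 137 and 189 in its SR libraries. HepG2 SR 2 alone set the HepG2 difference: it was −1.25 on the log2 scale with it (SE 0.85, unadjusted p = 0.187) and 0.052 without it. Over all SR against all WT the value was −0.46 (SE 0.60). It became 0.19 without HepG2 SR 2, 0.44 in the 5 libraries of like profile, and −1.11 without HepG2 SR 1, where it was called (unadjusted p = 0.0356).

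**Figure D4:**
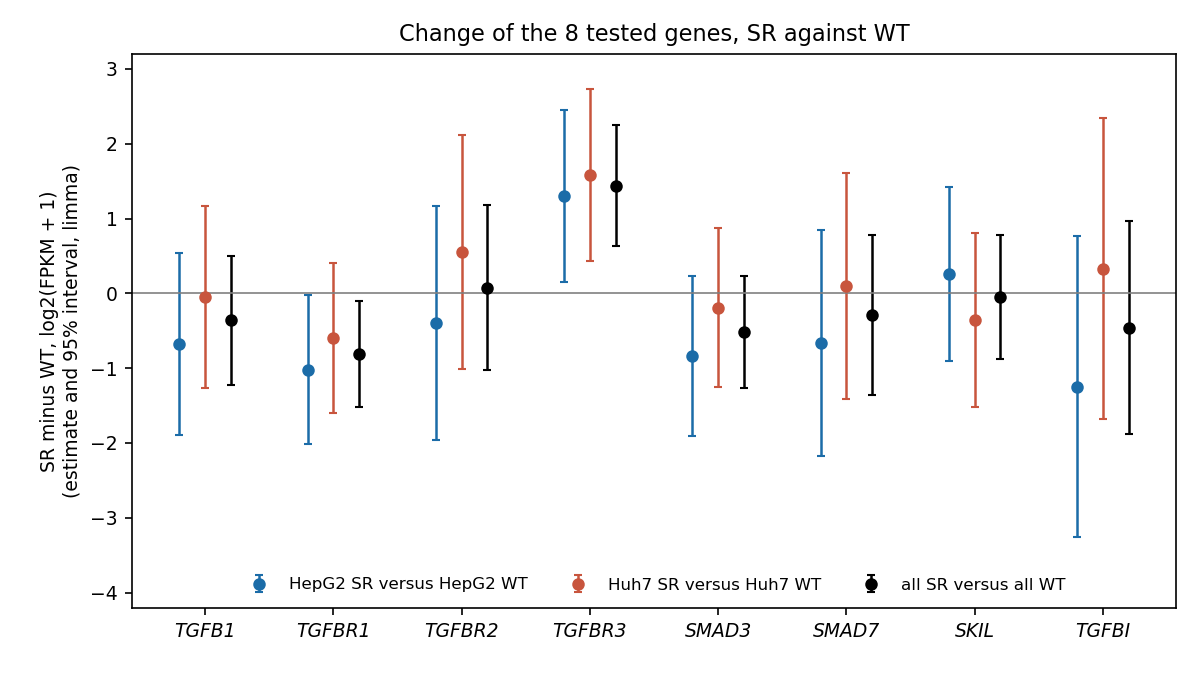
Difference between SR and WT for the 8 tested genes on the log2(FPKM + 1) scale, with 95% intervals from limma, in HepG2 (blue), in Huh7 (red) and over both (black). The interval of TGFBR3 lies above 0 in each comparison (0.15 to 2.45 in HepG2, 0.43 to 2.73 in Huh7), that of TGFBR1 lies below 0 in HepG2 and over both, and the intervals of the other 6 genes include 0.

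The median log2 difference of the 8 tested members was −0.67 in HepG2, 0.025 in Huh7 and −0.32 over both, beside −0.026, −0.055 and −0.046 for all genes tested. In HepG2, 6 of the 8 members were lower in SR and 2 higher (TGFBR3 and SKIL), and in Huh7 4 were lower and 4 higher. Of all genes tested, 47.6% were higher in SR in HepG2 and 44.7% in Huh7. HepG2 SR 2 had the lowest value of the 8 libraries for TGFBR1, SMAD3 and TGFBI, and the part its profile played in the HepG2 differences was not tested beyond the omissions given here.

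Between the labelled lines, none of the 8 members was called for Huh7 against HepG2 in the main fit, beside 4.9% of all genes. With the replicate number as a block TGFB1 and SMAD7 were called, while the values here are those without it. TGFB1 came closest, at −0.82 on the log2 scale (SE 0.36, unadjusted p = 0.0583), and was called without Huh7 WT 2 or Huh7 SR 2, where the value went as far as −1.14. SMAD7 differed by −0.74 (SE 0.45) and was called without Huh7 SR 2 (−1.11). The remaining 6 lay between −0.38 and 0.40. In limma, 0 genes reached an adjusted p below 0.05 for this comparison and 744 had an unadjusted p below 0.05. Within the 5 libraries of like profile, TGFB1 read 22.4 to 35.5 FPKM in the 3 labelled HepG2 against 18.9 and 21.6 in the 2 labelled Huh7, and SMAD7 13.2 to 17.7 against 9.74 and 12.4. A difference between the lines within these libraries was not tested, and the share of all genes that separate the lines there was not computed.

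The rest of the pathway was covered by 6 lists with 92 genes, of which 73 were tested. Over all SR against all WT, 0 were called higher and 4 lower by limma at an unadjusted p below 0.05: ITGAV, the integrin chain that frees latent TGF-beta, SMURF2, a ubiquitin ligase that acts with SMAD7 on TGFBR1, and the induced targets BHLHE40, a circadian repressor, and IL11, a fibrogenic cytokine. These were 4 of 73 genes, beside 3.93% of all genes called. In HepG2, 0 were called higher and 5 lower (these 4 and LOXL2, a collagen crosslinking enzyme), beside 2.14% of all genes. LOXL2 passed the filter only through its HepG2 WT libraries (3.06 and 1.45 FPKM, below 1 elsewhere), so its lower call leans on how it was admitted. In Huh7, 1 was called higher (HMGA2, a chromatin protein of mesenchymal and fetal cells) and 1 lower (INHBE, a hepatocyte activin chain), beside 1.87% of all genes.

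IL11 read 6.78 and 10.5 FPKM in HepG2 WT, 1.47 and 0.0479 in HepG2 SR, 1.56 and 10.7 in Huh7 WT, with 1.06 and 2.30 in its SR libraries. Every SR library was below every WT library but Huh7 WT 1, and the fall was 1.81 on the log2 scale (SE 0.56, unadjusted p = 0.0147). It fell by 1.83 over the 5 libraries of like profile (unadjusted p = 0.00036) and stayed called in 6 of 8 omissions, not without HepG2 WT 2 or HepG2 SR 2. BHLHE40 read 65.3 and 28.6 FPKM in HepG2 WT, 16.1 and 17.6 in HepG2 SR, 54.3 and 54.4 in Huh7 WT, with 36.0 and 39.3 in its SR libraries. Its SR libraries were below WT within each line, and the fall of 0.92 (SE 0.30, unadjusted p = 0.0186) stayed called in 7 of 8 omissions, not without HepG2 WT 1 (unadjusted p = 0.0555). BHLHE40 was not called in the 5 libraries (−0.86, limma unadjusted p = 0.104). The share of all genes with SR below WT within each line was not computed.

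SMURF2 read 15.6 and 11.5 FPKM in HepG2 WT, 6.76 and 3.04 in HepG2 SR, 5.95 and 11.4 in Huh7 WT, with 2.99 and 7.38 in its SR libraries. It fell by 1.02 on the log2 scale (SE 0.39, unadjusted p = 0.0355), a call kept in 3 of 8 omissions and in the 5 libraries of like profile (−0.77, unadjusted p = 0.0248). ITGAV fell by 0.71 (SE 0.29, unadjusted p = 0.0470), with 53.3 to 116 FPKM in WT overlapping 30.2 to 58.9 in SR. That call was kept in 2 of 8 omissions and not in the 5 libraries (−0.51). The HepG2 call of LOXL2 was kept in 0 of the 6 omissions in which it passed the filter, and the Huh7 calls of HMGA2 and INHBE in 2 of 8 each. In the fits to all 8 libraries these genes had an adjusted p of at least 0.956 by limma with Benjamini-Hochberg adjustment, and in the 5 libraries IL11 had 0.676 and SMURF2 0.84.

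By list, the median log2 difference between all SR and all WT was −0.18 for the 10 tested genes of ligands and their release. It was −0.089 for 9 receptors and co-receptors, −0.091 for 10 SMAD proteins and partners and −0.16 for 14 inhibitors. Over the 5 libraries of like profile the medians were −0.22 (7 genes tested), −0.17, −0.15 and 0.0043 in the same order, beside −0.051 for all genes. The highest means in these lists were those of the ligand protease FURIN with 49.5 to 151 FPKM and the receptor-binding protein FKBP1A with 64.2 to 245. Neither was called. NRP1, a co-receptor, followed the profile of the library: it read 56.7 and 26.7 FPKM in Huh7 WT 1 and Huh7 SR 1, 28.0 in HepG2 SR 2 and at most 5.69 in the other 5. CD109, a TGF-beta co-receptor that dampens signalling, read 36.0 and 19.8 in Huh7 WT 1 and Huh7 SR 1 and at most 7.12 elsewhere. Its difference between SR and WT of −1.41 (SE 0.74) was not called. It was called with the replicate number as a block and in the 5 libraries of like profile (−1.20, SE 0.37). In those 5 libraries the co-receptor ENG (unadjusted p = 0.0435) and NEDD4L, a ubiquitin ligase among the inhibitors (unadjusted p = 0.0313), were called higher.

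The 24 tested genes induced by TGF-beta had a median of −0.19 over both lines, with 18 lower and 6 higher in SR. Of all genes tested 44.9% were higher, with a median of −0.046. The median of the targets was −0.57 in HepG2 and −0.12 in Huh7, beside −0.026 and −0.055 for all genes. The part of HepG2 SR 2 in the HepG2 value was not tested. Over the 5 libraries of like profile 22 were tested, with a median of −0.37 and 5 higher in SR, beside a median of −0.051 for all genes. FN1, a matrix glycoprotein, had the highest mean of the targets, with 190 to 1140 FPKM, and differed by 0.0060 (SE 0.51) over all libraries.

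**Figure D5:**
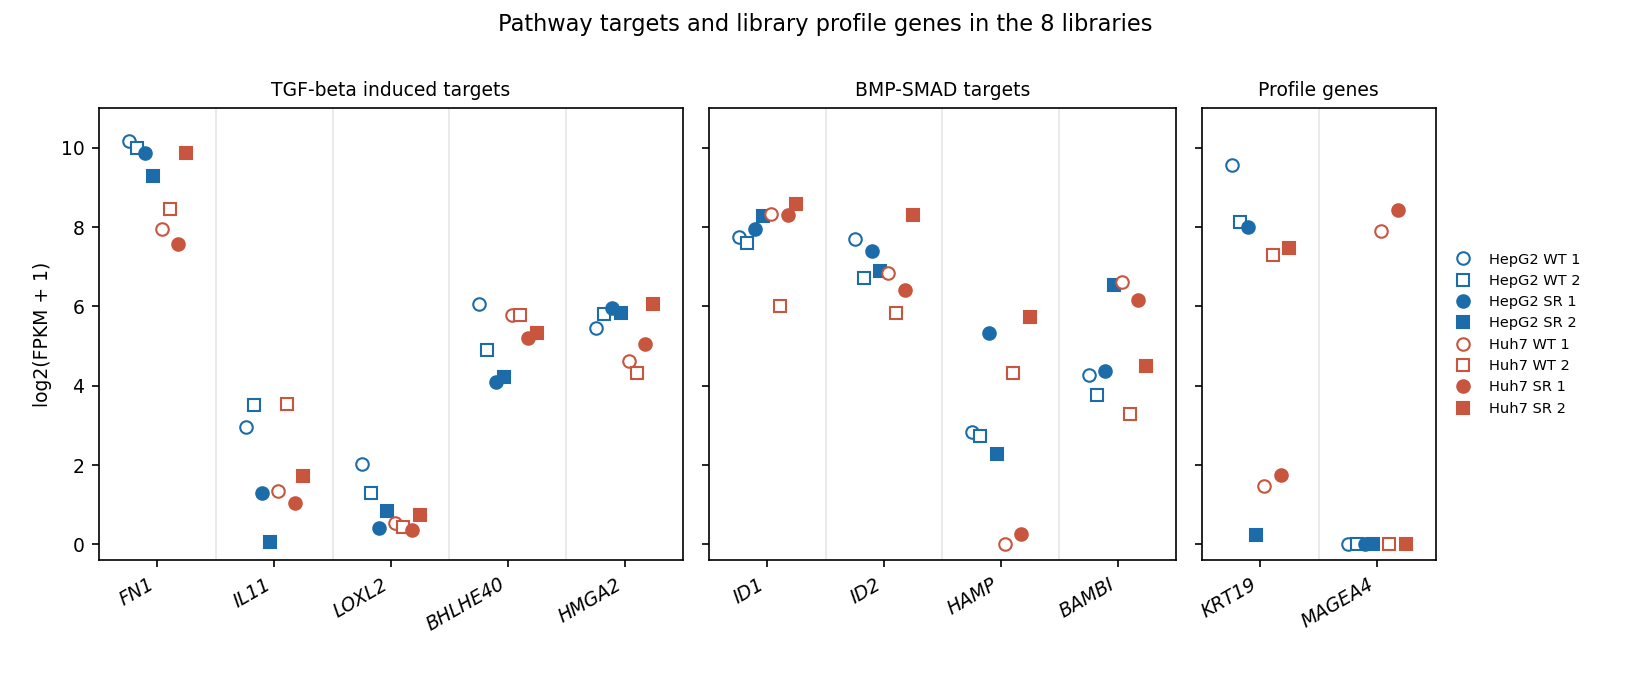
Named targets of TGF-beta (left), named targets of BMP signalling (middle) and the genes KRT19 and MAGEA4 (right) in the 8 libraries, as log2(FPKM + 1), with symbols as in the plot of the 10 genes. IL11 lies at 2.30 FPKM or less in the 4 SR libraries and at 6.78 FPKM or more in 3 of the 4 WT libraries.

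BMP signalling uses the related SMAD1, SMAD5 and SMAD9 proteins and shares inhibitors with TGF-beta. Its 9 targets had a median of 0.58 over both lines, with 8 higher and 1 lower in SR. For all genes the median was −0.046, with 44.9% higher. By limma at an unadjusted p below 0.05, 0 of the 9 were called higher and 0 lower over both lines, beside 3.93% of all genes called. ID1, the inhibitor of differentiation that is the classical BMP target, read 213 and 192 FPKM in HepG2 WT, 247 and 308 in HepG2 SR, 319 and 63.2 in Huh7 WT, with 317 and 382 in its SR libraries. In HepG2 its SR libraries lay above WT, a separation whose share over all genes was not computed. In Huh7 the groups met, with SR 1 (317.4) just under WT 1 (318.9). The difference over both lines of 0.87 (SE 0.49, limma unadjusted p = 0.123) was not called.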

How the data were processed

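RNA was polyA-selected and made into libraries with the NEBNext Ultra kit. The authors deposited 1 table of FPKM values per library, 8 in all, on Ensembl gene IDs. The submitters' processing notes name fastp 0.20.0 and the build GRCh38; the aligner, quantifier, annotation and strand setting are not given in the sources used here. The authors tested these data with edgeR, which needs counts, so limma 3.58.1 (R 4.3.3) was used on log2(FPKM + 1) instead. A fold change on this scale understates the change of low genes. Genes with at least 1 FPKM in at least 2 libraries were tested (15173, 8 of the 10 members) in 1 model of 4 group means, with eBayes trend, 2-sided p-values and Benjamini-Hochberg adjustment over all genes tested. Calls used the study's thresholds, an unadjusted p below 0.05 and a log2 change of at least 0.5 or below −0.5, with no fold threshold for the difference between the lines. The 5 libraries of like profile were fitted with a mean for WT and a mean for SR only, so the cell line was not modelled there. The fit to all 8 libraries was checked on simulated data. Positions came from GENCODE 29, in which 58228 of the 63241 IDs were found, and promoters from RefSeq GRCh38.p14. The members and lists, KRT19, MAGEA4 and the 5 libraries of like profile were chosen with earlier results of these data known. Named pathway genes were taken from those called, the 2 in each list with the highest mean FPKM and the 2 with the largest change over both lines. Alternatives covered the pseudocount, filter, TPM scaling, quantile normalization, each line fitted alone, a replicate block, eBayes without trend, adjusted p, each library left out and the 5 libraries alone. Values were handled in Python 3.11.15 with pandas 2.3.3 and drawn with matplotlib 3.10.9.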

Additional observations from a re-analysis of the deposited data

Results flagged for a closer look

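Gaps between libraries were tested with Dixon's criterion for each of the 10 genes and for 3 library measures, over all 8 libraries, over the 4 SR and over the 4 WT libraries. It was passed in 8 of 39 such groups, where chance alone passes about 1 in 20, and these sets share libraries.

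TGFB2 in HepG2 SR 2 read 2.10 FPKM, set apart from the next value over all 8 libraries (0.652) and from the next among the 4 SR libraries (0.254). Among the 4 WT libraries, TGFB2 in Huh7 WT 1 read 0.652 FPKM beside at most 0.0381. Both are among the libraries whose overall profile differed from the 5 of like profile.

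TGFBR2 in HepG2 WT 1 read 97.3 FPKM, beside 55.1 as the next over all libraries and 33.7 as the next among the WT libraries. PMEPA1 in Huh7 WT 2 read 0.189 FPKM beside at most 0.0527, all near the lowest values of the files. HepG2 WT 2 listed 38276 genes above 0, where the next library listed 29071 overall and 28681 among the WT libraries. It was also the library with the fewest estimated fragments.

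Of the tested members and the pathway genes of the naming rule, 0 of 33 differed between the lines in limma's test of that difference at an unadjusted p below 0.05, and none of them had every SR library on opposite sides of WT in HepG2 and Huh7. SMAD1, which lies outside that set, did: it read 3.28 and 4.28 FPKM in HepG2 WT against 4.62 and 7.55 in HepG2 SR, and 6.86 and 7.16 in Huh7 WT against 5.39 and 3.96 in Huh7 SR. It did not pass the test of the difference (unadjusted p = 0.0902).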

How the results depend on the processing

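With 2 libraries a group and no counts, only large differences could pass. For the members and the called pathway genes the direction was the same in most alternatives, and the values below are among those that changed. Counts of called genes moved far. HepG2 gave 58 to 1744 with 1 library left out (main 325), 504 with the filter at 0.1 FPKM and 0 at adjusted p. Huh7 gave 153 to 816 (main 283), 120 fitted alone and 0 at adjusted p. All SR against all WT gave 190 to 1278 (main 596) and 0 at adjusted p. The difference between the lines gave 23 to 944 (main 92), 358 at 0.1 FPKM, 787 with no filter, 152 with TPM scaling and 0 at adjusted p, and Huh7 against HepG2 gave 232 to 1716 (main 744) and 0 at adjusted p. At an unadjusted p below 0.05 limma had 325, 283, 597, 92 and 744 genes in the same order. TGFBR3 (1.44) and TGFBR1 (−0.81) lost their calls at adjusted p, and TGFBR1 also in the 5 libraries (−0.48) and in 6 of 8 omissions (−1.04 to −0.57). Its HepG2 call (−1.02) was also lost with the filter at 0.1 FPKM, with quantile normalization and with HepG2 fitted alone. Of the pathway genes, ITGAV lost its calls over both lines and in HepG2 with eBayes without trend. LOXL2 lost its HepG2 call with a pseudocount of 0.1 and with quantile normalization. HMGA2 and INHBE lost their Huh7 calls with Huh7 fitted alone, and INHBE also with no filter and with quantile normalization. The change of IL11 over both lines (−1.81) went as far as −2.74. TPM scaling moved the median of all genes over both lines from −0.046 to −0.12, and TGFBR3 (1.45) and TGFBR1 (−0.97) stayed called. Signs changed for TGFBR2 over both lines with TPM scaling (−0.017), TGFB1 in Huh7 (0.042) and SKIL over both lines (0.0054) with quantile normalization, and TGFBI over both lines in the 5 libraries (0.44). Omissions changed signs over both lines for TGFBR2 (−0.38 to 0.53), SMAD7 (−0.65 to 0.084), SKIL (−0.31 to 0.22) and TGFBI (−1.11 to 0.19). In HepG2 they did so for TGFBR2 (−1.30 to 0.51), SKIL (−0.27 to 0.78) and TGFBI (−2.54 to 0.052). In Huh7 they did so for TGFB1 (−0.68 to 0.58), SMAD3 (−0.52 to 0.14), SMAD7 (−0.64 to 0.84), SKIL (−0.72 to 0.014) and TGFBI (−0.35 to 1.01). For Huh7 against HepG2 they did so for TGFBR1 (−0.076 to 0.40), TGFBR2 (−0.84 to 0.071), TGFBR3 (−0.39 to 0.13), SMAD3 (−0.042 to 0.38) and TGFBI (−0.41 to 0.89). An omission leaves a group with 1 library, which is assumed to vary like the others. The cause of these changes was not tested.

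Replicate numbers are shared by the groups, but the labels do not say that a number marks a batch. Deviations of libraries with the same number correlated at r = 0.125 in HepG2 and 0.796 in Huh7, across genes. With the replicate number as a block, 1392 genes were called in HepG2, 669 in Huh7, 1509 over both lines, 535 for the difference between the lines and 2488 for Huh7 against HepG2. The block added calls of SMAD3 in HepG2 (−0.84, unadjusted p = 0.0486) and of TGFB1 (−0.82, unadjusted p = 0.0107) and SMAD7 (−0.74, unadjusted p = 0.0242) for Huh7 against HepG2, which the fit without it did not make. Of the 73 pathway genes, those called lower went from 5 to 10 in HepG2, from 1 to 3 in Huh7 and from 4 to 12 over both lines, and those called higher from 1 to 2 in Huh7 and stayed at 0 in the others (limma, unadjusted p below 0.05). CD109 was then called lower in all 3 comparisons, and ITGAV lost its calls.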

Other observations

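In the 5 libraries of like profile, the 9 tested BMP targets had a median log2 difference of 0.77 between SR and WT, beside −0.051 for all genes tested, with 8 higher, and 3 were called higher and 0 lower by limma at an unadjusted p below 0.05, beside 5.85% of all genes. HAMP, the iron hormone hepcidin, read 6.13, 5.69 and 18.9 FPKM in the WT libraries and 39.2 and 52.5 in the SR libraries. It rose by 2.24 on the log2 scale (SE 0.48, unadjusted p = 0.00167). ID4, another inhibitor of differentiation, rose by 0.77 (SE 0.26) and SMAD9, a BMP-activated SMAD, by 0.94 (SE 0.31). For each of the 3 the SR libraries lay above the WT libraries, and the share of all genes that do so in the 5 libraries was not computed. The limma p with Benjamini-Hochberg adjustment was 0.676 for HAMP, higher in 2 of 2 SR libraries, and 0.84 for ID4 and SMAD9.

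Over all 8 libraries none of these 3 was called, beside 3.93% of all genes, and the difference between these fits was not tested. HAMP read 0.0134 and 0.205 FPKM in Huh7 WT 1 and Huh7 SR 1 and 3.89 in HepG2 SR 2, and ID4 read 36.1 and 17.8 in the first 2 of these.

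In the same 5 libraries, 3 of the 22 tested targets induced by TGF-beta were called lower and 0 higher (limma, unadjusted p below 0.05), beside 5.85% of all genes: IL11, JUNB, an AP-1 subunit, and CDKN2B, the cell cycle inhibitor p15. CDKN2B read 2.19, 3.45 and 2.78 FPKM in WT and 0.544 and 0.345 in SR, a fall of 1.39 on the log2 scale (SE 0.28, unadjusted p = 0.00097). It passed the filter there only through its WT libraries, so its lower call leans on how it was admitted. Outside these libraries it read 3.54 in HepG2 SR 2. ENG, NEDD4L, ID4, JUNB and CDKN2B lie outside the rule for named genes and were named after their values were seen.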
